A study of Mus musculus with 65 samples.

Results

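The regions described here are 1613 transcribed regulatory sites at which nascent transcription was higher after 1 h without the corepressor Mtg16 and was not lowered by 1 h of A485. They were taken from 29632 dREG sites, which are promoters and enhancers recognised from the shape of run-on signal, and made up 5.44% of them. A site was selected when its mean after 1 h of degrader exceeded its DMSO mean by a log2 ratio of at least 0.7, its A485 ratio to the same DMSO libraries was above -0.3, and its degrader mean was at least 20 normalized reads. Means had 1 read added before the ratio was taken. In all, 2673 sites met the conditions on the degrader, and the 1060 of them that failed the condition on A485 serve for comparison and are called the A485-lowered sites.

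All libraries were PRO-seq of MEL cells, a mouse erythroleukemia line, in which Mtg16 carried an FKBP degradation tag and 2 HA tags (Mtg16-FKBP-2XHA). In PRO-seq, polymerases engaged on DNA run on in the presence of biotin-CTP, and the labelled new RNA is pulled down with streptavidin. Every group, DMSO included, carried the tagged protein, and a line without the tag was not analysed here. How many clones the line represents is not given in the sources used here. The A485 series gave the groups of the selection. It held both agents together (250 nM dTAGV1 and 10 µM A485), dTAGV1 alone and A485 alone for 15 min, 30 min and 1 h, and DMSO, with 3 libraries a group except 2 each for both agents and for A485 at 30 min. The time course held DMSO and 15 min, 30 min and 1 h of 250 nM dTAGV1 (3 libraries each), 2 h of dTAGV1 (2 libraries), and washout after 2 h of dTAGV1 for 30 min (3), 1 h (2) and 2 h (3). The LBH589 series compared 5 nM LBH589 for 30 min and 1 h with DMSO (3 libraries each), and the LBH589 washout series combined LBH589 with a washout of 30 min or 1 h that followed 2 h of dTAGV1 (3 libraries per group, none of DMSO). Nothing in the labels says that replicates were separate cultures, so p-values measure the spread between libraries, which may be technical.

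Mtg16, encoded by Cbfa2t3, is a corepressor of the ETO family that binds no DNA itself and is brought to chromatin by factors such as the Tal1 and Gata1 complex in erythroid and megakaryocytic cells. It recruits histone deacetylases, which remove acetyl groups from histones. The acetyltransferases p300 and CBP add such groups at enhancers, and A485 blocks their catalytic activity. LBH589, or panobinostat, blocks histone deacetylases, and dTAGV1 sends FKBP-tagged proteins to the proteasome. Because dTAGV1 removes a protein, reads of its gene do not check the depletion, and protein levels were not analysed here.

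Reads at sites, given in units of 1000000 reads per library, lay between 1.97 and 6.96 in the time course, 0.858 and 7.63 in the A485 series, 2.77 and 4.63 in the LBH589 series, and 1.49 and 3.51 in the LBH589 washout series. The shallowest library, A485 1 h replicate 1, was one of those that chose the sites. Each of the deposited tables was scaled by size factors, so a change shared by most sites cannot be seen, and tests were made within a table. For 5 time-course libraries (1 h and 2 h) names and labels disagreed, the name giving dTAGV1 and the title and treatment giving A485, and the name was followed. At the A485-lowered sites these libraries lay above DMSO, with medians of 1.31, 1.202 and 1.29 (log2) at 1 h, whereas the A485 libraries of the A485 series that had no part in the selection had medians of -1.06, -0.99 and -0.89 at 15 min and -0.88 and -0.86 at 30 min. The DMSO libraries behind those A485 medians did take part in it. With each site centred over its table, 4 libraries had a mean correlation below 0 to their group's other members over the most variable sites: dTAGV1 15 min replicate 2 (-0.21), dTAGV1 30 min replicate 3 (-0.25), 30 min washout replicate 3 (-0.23) and LBH589 1 h washout replicate 3 (-0.09). Erythroid markers were well measured in the DMSO libraries of the A485 series, where 7 of the 8 that the gene table held had at least 100 normalized reads. The erythroid list summed to between 10009 and 10469 normalized reads. Megakaryocyte markers were well measured too, with 3 of 4 at 100 or more and a sum between 3332 and 3541, of which Itga2b, an integrin subunit of platelets, averaged 2695. Granulocyte and macrophage markers (3 of 6 listed in the table, Ly6g at 0) summed to between 40.7 and 65.7, lymphoid markers (3 of 6) to between 14.5 and 18.9, and liver and epithelial ones (1 of 5) to between 28.9 and 58.2. The beta-globin gene Hbb-bs averaged 6.32 normalized reads.

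At the selected sites the ratio of dTAGV1 1 h to DMSO had a median of 0.99 on the log2 scale and reached 4.04. It was 1 or more at 783 sites, 2 or more at 56, and below 0.8 at 350. The A485 ratio ran from -0.30 to 3.32 with a median of 0.60. It was below 0 at 267 sites, between 0 and 0.7 at 615, and 0.7 or more at 731. At 486 sites it exceeded the degrader's own ratio. The 3 ranges of A485 ratio are used below as descriptive bands, and were set after the values had been seen. Both ratios share the same 3 DMSO libraries, and the sites were chosen by these values, the normalized reads of DMSO, dTAGV1 1 h and A485 1 h, so they are given without a test.

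Just inside the degrader limit lay chr7:98821801-98823280 (mm39), with means of 84.5 normalized reads with dTAGV1 and 51.6 in DMSO. Just outside lay chr8:91602631-91604400, with 240.2 with dTAGV1 and 147 in DMSO. Just inside the A485 limit, chr11:78722521-78723980 had 63.9 with A485 and 78.9 in DMSO, and just outside it, chr12:33270561-33271090 had 40.9 with A485 and 50.7 in DMSO. The sites nearest to the limit on level, chr7:125638861-125639150 inside and chr2:31770581-31771070 outside, averaged 20.001 and 19.99 normalized reads with dTAGV1, in that order. Values on the inner and outer sides of each limit were nearly equal, so the limits divide a continuous range.

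The single libraries of the selecting groups also set which sites were chosen. Leaving out each of the 9 libraries in turn gave between 1462 and 1835 sites, of which between 1334 and 1562 were shared with the 1613, and 902 sites (55.9%) were selected every time. Scaling each library to the same total over sites gave 1482 sites, all of them among the 1613. All 3 dTAGV1 1 h libraries were above all 3 DMSO libraries at 1537 sites (95.3%), as the selection favours. At 5 sites dTAGV1 1 h replicate 6 exceeded 3 times the mean of the other libraries of its group. One of them was chr13:112714571-112714890, with 57.1, 70.7 and 726 normalized reads after dTAGV1 1 h against 54.9, 26.7 and 45.1 in DMSO. Another was chr13:45023261-45023470, with 35.7, 47.1 and 223 after dTAGV1 1 h against 41.2, 37.8 and 38.2 in DMSO. At the first the other degrader libraries lay above all of DMSO, and at the second 1 of them lay below all of DMSO and 1 above.

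The selected sites were longer than dREG sites in general, with a median length of 810 bases against 560 for all sites, and shorter than the A485-lowered sites at 970. Their DMSO level was modest, with a median of 28.9 normalized reads against 34.7 at the A485-lowered sites and 24.9 at all sites. In DMSO 155 of them averaged under 10 normalized reads and 248 averaged 100 or more (all 29632 sites: 8759 and 6168). Sites with an A485 ratio below 0 had a median length of 940 bases, those between 0 and 0.7 had 850, and those at 0.7 or more had 740. The requirement of 20 normalized reads with the degrader removes low sites, so the levels are not independent of the selection. Reads are counted per site, so the same requirement can favour long sites, and lengths were not compared at matched levels.

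They were scattered over the genome. Selected sites made up between 3.73% of the dREG sites of chromosome X (33 of 885) and 7.43% of those of chromosome 18 (63 of 848), with 1 of 25 on chromosome Y. When sites less than 50 kb apart were joined, 1129 of the 1613 (70.0%) stood alone, as did 560 of the 1060 A485-lowered sites (52.8%). Over all 29632 sites it was 2404 (8.11%). Such a share depends on how many sites a set holds, so the 3 values cannot be set against each other. The groups of most members held 6 sites on chr2:153391561-153452710, 6 on chr3:84551911-84622570 and 5 on chr15:96626211-96677230. In the chromosome 3 group, spanning 70.7 kb, the degrader ratios ran from 0.95 to 1.58 and the A485 ratios from 0.03 to 1.74. Of the selected sites, 126 (7.81%) lay within 10 kb of an A485-lowered site and 284 (17.6%) within 50 kb. The same shares were not computed over all sites, so these counts show neither nearness nor avoidance. Neighbouring sites can belong to 1 transcription unit and are not independent.

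The time course repeats the degrader treatment in libraries that had no part in the selection. It was tested with limma on log2(value + 1) across 23307 sites, with Benjamini-Hochberg adjusted p-values and a threshold of 0.05. Of the selected sites 1593 were in that table, 12 of these had a mean under 10 and were not tested, and 1581 were tested. After 15 min of dTAGV1, 484 of the 1581 were called higher than in DMSO and 1 lower (all sites: 11.7% higher, 2.16% lower). After 30 min 439 were higher and 8 lower (all sites: 12% and 4%). After 1 h 528 were higher and 5 lower (all sites: 12.3% and 3.07%). After 2 h 326 were higher and 5 lower (all sites: 8.92% and 1.58%). Between 20.6% and 33.4% of the selected sites were thus called higher at each time, which was more than the share of all sites but left 1048 of 1581 past no threshold at 1 h.

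The size of the change was also smaller than in the libraries that chose the sites. Medians over the tested sites were 0.49, 0.37, 0.47 and 0.30 (log2) after 15 min, 30 min, 1 h and 2 h, with a median SE of a single site of 0.26 at the first 3 times and 0.29 at 2 h. At 1 h, 1337 of 1581 differences were positive, and the middle 80% of sites ran from -0.12 to 1.40. At the A485-lowered sites 851 of 1057 were called higher at 1 h (80.5%), with a median of 1.25. In the medians of single libraries, the selected sites lay between 0.25 and 0.76 above DMSO in all degrader libraries of the time course, and DMSO libraries lay between -0.09 and 0.18. The DMSO libraries of the time course were not evenly placed, with replicate 1 at 0.18 and the others at -0.08 and -0.09. Between 2 h and 15 min of dTAGV1 limma called 0 of the 1581 higher and 0 lower (all sites: 0% and 0%), so no further gain with time was detectable. The median was -0.19. An unadjusted p under 0.05 in limma was found at 210 of the 1581, a count not given here for all sites.

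**Figure D1:**
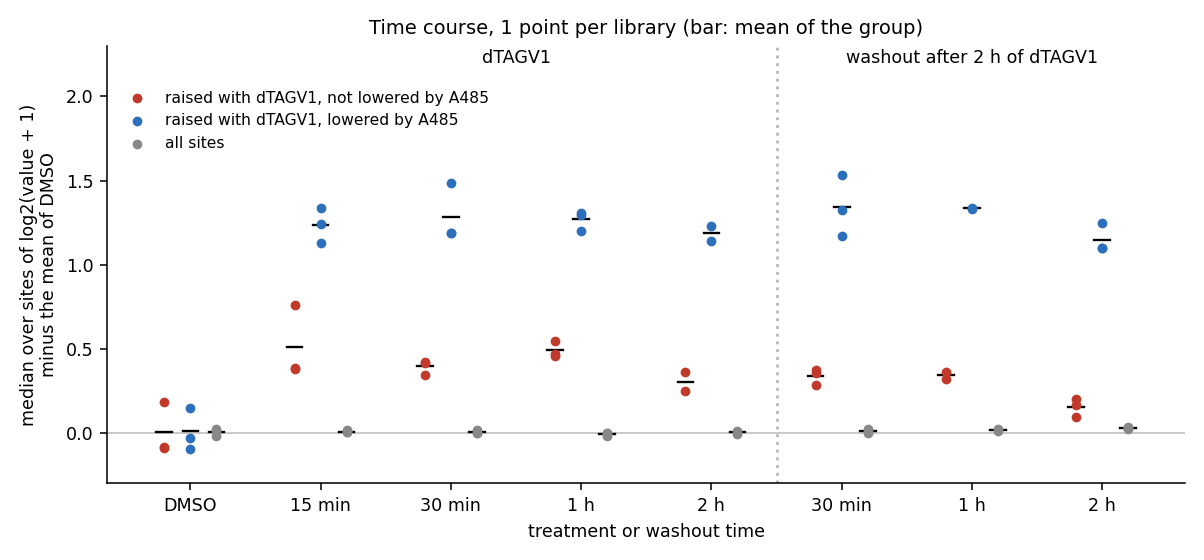
Median over sites of log2(value + 1) minus the DMSO mean (vertical axis) for each library of the time course, by treatment or washout time. Red points are the selected sites, blue points the A485-lowered sites and grey points all sites, and bars are group means. The red points stand between 0.25 and 0.76 with dTAGV1, below the blue points at every time, and lie between 0.09 and 0.20 after 2 h of washout.

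The label of the sites as repressed by Mtg16 therefore held for part of them in the time course. Of the sites with an A485 ratio below 0, 159 of 266 (59.8%) were called higher at 1 h of dTAGV1 in the time course, with a median of 0.88. For A485 ratios between 0 and 0.7 the count was 259 of 607 (42.7%), with a median of 0.63. For ratios of 0.7 or more it was 110 of 708 (15.5%), with a median of 0.26, close to the 12.3% of all sites. Of the 902 sites selected under every leave-out, 886 were tested and 320 (36.1%) were higher at 1 h. Without the 3 time-course libraries that stood apart, 679 of the selected sites were higher at 1 h. These libraries belong to neither group compared, so only the estimate of the spread differed. The share of all sites under this setting is not given here, so the larger count adds nothing to the label.

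The selected sites with the highest fitted change at 1 h of dTAGV1 in the time course are described first. At chr15:66696431-66698050 the DMSO libraries had 54.2, 14.6 and 31.3 normalized reads. There were 253, 174 and 256 after 15 min, 250, 250 and 420 after 30 min, 276, 234 and 256 after 1 h and 211 and 149 after 2 h. Every degrader library was above every DMSO library, already at the first time measured. The change at 1 h was 3.08 ± 0.30 (log2 ± SE, limma adjusted p = 4.02e-08, n = 3 each).

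At chr6:82878671-82879680 the DMSO libraries had 22.4, 24.7 and 23.9 normalized reads, those of 15 min 114, 132 and 121, and those of 1 h 146, 134 and 197. The change at 1 h was 2.68 ± 0.17 (limma adjusted p = 6.29e-11, n = 3 each), the smallest error among the 8 sites named here. The site with the highest ratio in the selection, chr8:117812491-117813440, had 84.6, 79.4 and 110 normalized reads after 1 h of dTAGV1 in the time course, against 14.9, 11.9 and 5.97 in DMSO. Its change was 3.02 ± 0.28 (limma adjusted p = 1.89e-08, n = 3 each).

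The other sites of this kind were chr14:73360061-73361220, chr1:82664051-82664880, chr17:50275691-50276150, chr19:37214641-37216580 and chr12:52690311-52690930, with changes at 1 h between 2.68 and 2.97. At chr1:82664051-82664880 the group means were 4.47 in DMSO, 17.8 at 15 min, 18.6 at 30 min, 34.2 at 1 h and 31.4 at 2 h, so the later times had the higher means. At chr17:50275691-50276150 the highest mean came first, with 3.83 in DMSO, 36.4 at 15 min, 29.4 at 30 min, 30.0 at 1 h and 33.6 at 2 h. Its degrader libraries overlapped between these times. Limma called neither site between 2 h and 15 min, so both orders describe group means only. Low levels at these sites make the log2(value + 1) scale understate their change.

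**Figure D2:**
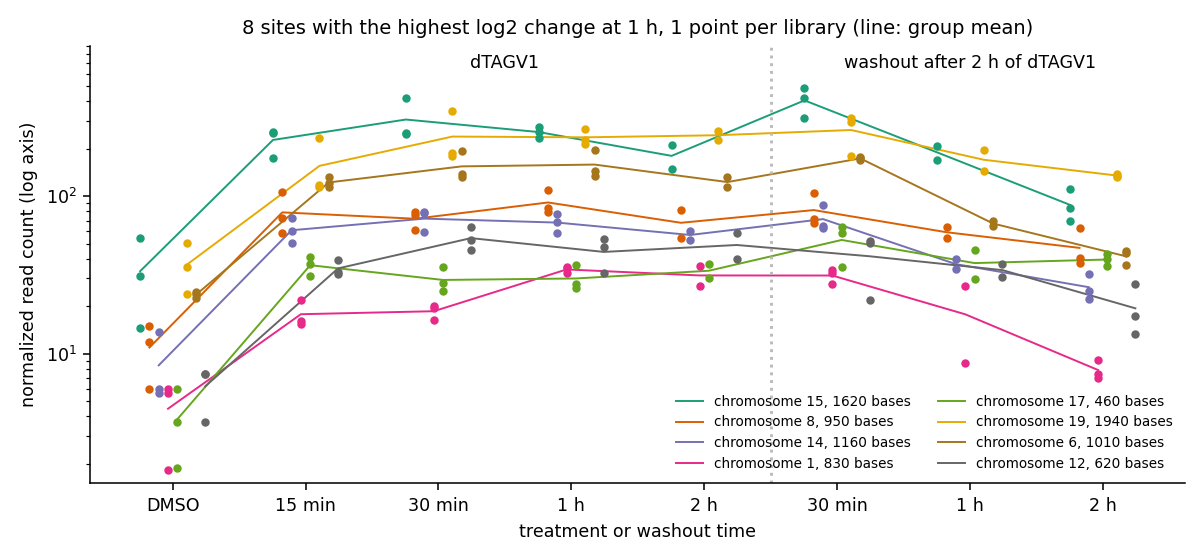
Normalized read count (log axis) at the 8 selected sites with the highest fitted change after 1 h of dTAGV1 in the time course, 1 point per library with lines through group means, by treatment or washout time. All degrader libraries lie above the DMSO libraries of the same site, and after 2 h of washout the sites differ in how far they came down.

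A few selected sites went the other way. Of the 4 with the lowest fitted change at 1 h, 2 were called lower. At chr14:45243481-45244290 there were 10.8, 1.745 and 8.44 normalized reads after 1 h of dTAGV1 against 18.7, 12.8 and 20.9 in DMSO (-1.43 ± 0.49, limma adjusted p = 0.0490, n = 3 each), a call lost with edgeR at an adjusted p of 0.0923. At chrX:93871371-93871900 there were 15.7, 13.1 and 16.9 after 1 h of dTAGV1 against 29.9, 26.5 and 41.8 in DMSO (-1.04 ± 0.34, limma adjusted p = 0.0374, n = 3 each). In the selecting libraries the mean of the second site had been 23.4 with dTAGV1 against 14.0 in DMSO, so the direction differed between experiments. The remaining 2, chr11:76891321-76891750 and chr6:125354641-125355240, had fitted changes of -0.93 and -0.92 and did not pass the threshold.

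A485 was added together with the degrader in the A485 series. Set against dTAGV1 alone, these libraries show what A485 changed where the degrader was present, any effect of A485 without it included. Both agents were compared with dTAGV1 alone at 15 and 30 min, in libraries not used by the selection. Of 21312 sites tested in this table, 1591 were selected sites, and 22 selected sites had a mean under 10. With both agents for 15 min, 113 of 1591 were called higher and 372 lower than with dTAGV1 alone (all sites: 8.61% higher, 17.7% lower). At 30 min 265 were higher and 341 lower (all sites: 14.1% and 21.6%). Medians were -0.26 at 15 min and -0.14 at 30 min (all sites: 0.05 and 0.00), with a median SE of 0.26 and 0.29.

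At both times 216 of the selected sites (13.6%) were called lower and 86 (5.41%) higher with both agents than with dTAGV1 alone (all sites: 14.2% and 4.99%). These shares of sites called at both times were near those of all sites, so they set the selected sites apart in neither direction. At the A485-lowered sites 824 of 1011 were lower at 15 min and 0 higher, with a median of -1.40 (limma). At the same comparison 887 A485-lowered sites had an unadjusted p under 0.05 in limma (all sites: 7841 of 21312). Of the selected sites 23.4% were lower at 15 min and 21.4% at 30 min (all sites: 17.7% and 21.6%), so the share exceeded that of all sites at 15 min only. With only the groups compared in the fit, 214 were higher and 547 lower at 15 min. Quantile normalization gave 218 higher and 337 lower at 15 min, and at 30 min 343 higher and 253 lower. The split between the directions thus depends on the scaling, and at 30 min the more frequent direction changes with it.

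The bands of A485 ratio split this result. Where the ratio was below 0, 155 of 260 sites (59.6%) were lower with both agents than with dTAGV1 at 30 min and 1 was higher, with a median of -0.84. Between 0 and 0.7, 164 of 602 (27.2%) were lower and 11 higher, with a median of -0.39. At 0.7 or more, 22 of 729 (3.02%) were lower and 253 (34.7%) higher, with a median of 0.42. The bands were drawn from A485 at 1 h of the same series, so their order is described and not tested.

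**Figure D3:**
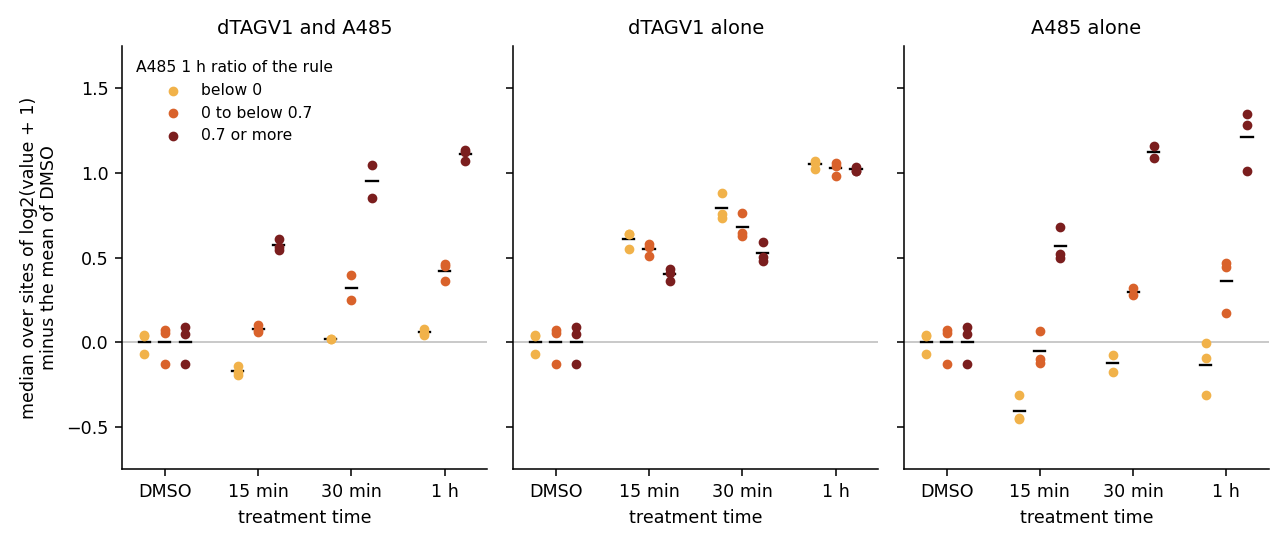
Median over the selected sites of log2(value + 1) minus the DMSO mean (vertical axis) for each library of the A485 series by treatment time, with both agents, dTAGV1 alone and A485 alone. Colours mark the band of the A485 1 h ratio, bars are group means, and DMSO, dTAGV1 1 h and A485 1 h chose the sites. With dTAGV1 alone, medians from the lowest to the highest band were 0.61, 0.54 and 0.40 at 15 min and 0.76, 0.65 and 0.52 at 30 min. With A485 present the bands separate in the opposite order, the same at 15 min as at 1 h. Values for dTAGV1 1 h and A485 1 h follow from the selection and the bands.

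The reverse comparison, both agents against A485 alone, asks for an effect of the degrader in the presence of A485. It gave few calls. At 15 min 16 of 1591 selected sites were higher and 0 lower (all sites: 0.633% and 0.00938%). An unadjusted p under 0.05 in limma was found at 186 of the 1591 (all sites: 1341 of 21312). At 30 min 8 were higher and 13 lower (all sites: 0.948% and 0.469%). Medians were 0.09 and -0.10. DESeq2 on recovered reads called 25 higher and 0 lower at 15 min. At the A485-lowered sites 89 of 1011 were higher at 15 min, with a median of 0.38. The 16 selected sites called at 15 min were all among those called higher at 1 h of dTAGV1 in the time course, which were 33.4% of the selected sites tested there. The same overlap was not computed over all sites. Only 1 selected site was higher at both times, and with 0 lower at 15 min none could be lower at both (all sites: 0.324% higher and 0.00469% lower at both). The 30 min comparison has 2 libraries on each side, those of both agents with 1.59 and 1.14 of these units of reads, and leaving out 1 library gave between 6 and 65 calls, the 65 without replicate 1 of both agents. At 15 min the same range was 5 to 18, with 5, 6 and 8 calls without replicate 6, 5 and 4 of both agents and 6 and 8 without replicate 4 and 6 of A485.

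Values at single sites show the patterns. At chr15:66696431-66698050 the libraries with both agents had 29.4, 18.7 and 13.8 normalized reads at 15 min, against 94.4, 87.0 and 71.5 with dTAGV1 alone. The difference was -2.04 ± 0.39 (limma adjusted p = 8.77e-05, n = 3 each). A485 alone gave 19.1, 9.89 and 14.5 at 15 min, and DMSO 17.4, 22.2 and 18.6. With both agents the site thus stayed near its DMSO values, although its A485 ratio of -0.30 had only just placed it among the selected sites.

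At chr13:83259691-83260790, among the 5 highest ratios of the selection, both agents gave 2.27, 5.94 and 7.74 normalized reads at 15 min, against 30.4, 38.4 and 24.6 with dTAGV1 alone. The difference was -2.44 ± 0.39 (limma adjusted p = 6.45e-06, n = 3 each). The groups did not overlap, and this site had an A485 ratio of 0.54.

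A different case was chr6:82878671-82879680. Both agents gave 44.2, 39.9 and 48.1 normalized reads at 15 min, against 13.7, 22.8 and 16.2 with A485 alone, and the difference was 1.31 ± 0.30 (limma adjusted p = 0.0206, n = 3 each). With dTAGV1 alone there were 62.9, 49.5 and 66.7, and both agents differed from that by -0.42, which did not pass the threshold. Here the degrader's rise was measured with A485 present.

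At 30 min the named sites rest on 2 libraries a group. At chrX:145015431-145016350 both agents gave 5.61 and 7.71 normalized reads against 0 and 1.58 with A485 alone (2.24 ± 0.56, limma adjusted p = 0.0289, n = 2 each). Reads this few put the values near the floor of the measurement. At chr8:123491591-123491890 both agents gave 28.0 and 30.8 against 5.44 and 12.6 with A485 alone (1.70 ± 0.41, limma adjusted p = 0.0217, n = 2 each). The remaining high ones by fitted change, chr11:90617351-90618480 and chr10:128054111-128054400, had changes of 2.09 and 1.84 that did not pass. At chr12:52684581-52685830 both agents gave 5.61 and 0 against 17.7 and 11.04 with A485 alone (-2.54 ± 0.57, limma adjusted p = 0.0138, n = 2 each). The other low ones, chr13:112900471-112900940 and chr8:95693761-95694440, had changes of -2.41 and -2.27 that did not pass, and in all 3 the library of both agents 30 min replicate 2 was at 0. With edgeR on recovered reads the 3 calls were lost, at adjusted p = 0.407, 0.204 and 0.369 in the order given.

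Among the 729 sites with an A485 ratio of 0.7 or more, 109 (15.0%) were higher and 27 lower with both agents than with dTAGV1 at 15 min. The highest A485 ratio of the selection, 3.32, belonged to chr3:96846221-96847040, a site picked after its values were seen. With both agents for 30 min it had 118 and 129 normalized reads, against 26.7, 17.9 and 34.4 with dTAGV1 alone (2.23 ± 0.27, limma adjusted p = 2.23e-08, n = 2 and 3). A485 alone for 30 min gave 177 and 126, and DMSO 10.98, 16.7 and 19.6. In the time course its mean was 25.3 ± 7.5 after 1 h of dTAGV1 and 24.6 ± 7.7 in DMSO (SD, n = 3 each), and after 2 h of dTAGV1 it was called lower (-1.20 ± 0.38, limma adjusted p = 0.0402, n = 2 and 3).

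At 1 h the comparisons share libraries with the selection and are described only. Both agents minus dTAGV1 had a median of -0.42 over the 1613 sites, with 489 positive, and both agents minus A485 had a median of 0.00, with 809 positive. At the A485-lowered sites the same medians were -1.76 and 0.61. A485 alone minus DMSO had a median of 0.16 at 15 min, with 977 of 1613 sites positive, and of 0.54 at 30 min, with 1301 positive. At 15 min 22.9% of the 1613 lay at or below -0.3 (all sites: 31.1%). From the lowest to the highest band of A485 ratio this share was 62.2%, 28.3% and 4.10%, with medians of -0.41, -0.04 and 0.56. Part of the selected sites were thus lower with A485 at 15 min, and the selection speaks for 1 h only. In the medians of single libraries, DMSO replicate 4 lay at -0.12 over the selected sites and replicates 5 and 6 at 0.06 and 0.07. A485 1 h libraries lay at 0.41, 0.71 and 0.76, the lowest being the shallowest one.

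**Figure D4:**
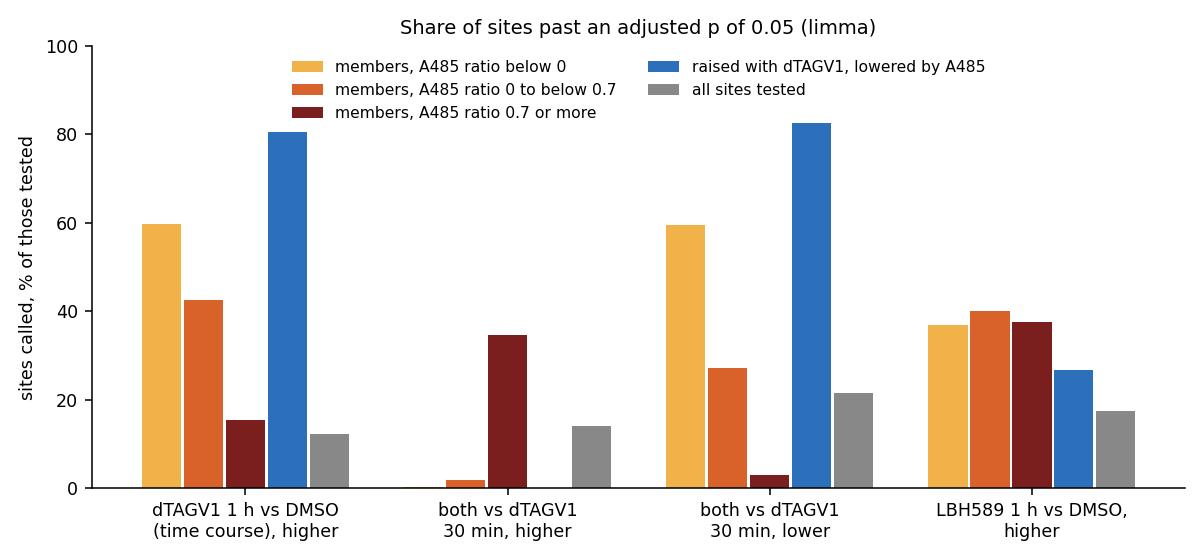
Share of sites called (limma adjusted p under 0.05, vertical axis in percent of those tested) in 4 comparisons, for the selected sites in 3 bands of A485 ratio, for the A485-lowered sites and for all sites tested. From the lowest to the highest band the share called higher with dTAGV1 at 1 h stands at 59.8%, 42.7% and 15.5%, whereas with LBH589 at 1 h the bands stand at 37.0%, 40.1% and 37.7%.

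Washout after 2 h of dTAGV1 asks whether the selected sites return once the degrader is removed. Against 2 h of dTAGV1, 30 min of washout gave 0 selected sites higher and 0 lower of 1581 in limma (all sites: 0.00429% and 0%). At an unadjusted p under 0.05 in limma there were 134 (all sites: 2606 of 23307). Among the selected sites edgeR also called 0, and DESeq2 called 1 lower. Without 30 min washout replicate 3, which stood apart, 30 were higher and 25 lower, and without all 3 libraries that stood apart 103 were higher and 101 lower. After 1 h of washout 32 were higher and 49 lower (all sites: 2.45% and 2.90%), with a median of -0.01. These calls fell to between 0 and 10 when any 1 of the 4 libraries compared was left out: 10 and 0 without 2 h replicate 1 and 2, and 3 and 6 without 1 h washout replicate 1 and 2. With only these groups in the fit 186 were higher and 178 lower.

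After 2 h of washout 45 selected sites were higher and 214 lower than after 2 h of dTAGV1 (all sites: 5.64% and 6.13%), with a median of -0.20. Lower calls were thus 13.5% of the selected sites, and more frequent than higher ones at this time. Of the A485-lowered sites 85 of 1057 were higher and 129 lower, with a median of -0.07. The count depends on the 2 libraries of 2 h dTAGV1: without replicate 1 it was 22 higher and 32 lower, and without replicate 2 it was 8 higher and 66 lower. Without 2 h washout replicate 2 it was 30 higher and 119 lower. With only the groups compared in the fit 160 were higher and 391 lower, and without the libraries that stood apart 118 were higher and 344 lower.

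Of the 528 selected sites that were higher at 1 h of dTAGV1 in the time course, 104 (19.7%) were lower and 10 higher after 2 h of washout than after 2 h of dTAGV1, with a median of -0.31. Of the 1053 that were not called higher, 110 (10.4%) were lower and 35 higher, with a median of -0.14. Against DMSO, 2 h of washout left 390 of 1581 selected sites higher and 191 lower (all sites: 17.6% and 13.0%), with a median of 0.14. Among sites with an A485 ratio of 0.7 or more, 71 of 708 were higher and 126 lower than DMSO. For ratios below 0 the numbers were 126 higher and 2 lower of 266. Washing and fresh medium were given without a washed control, so their effects and the return of Mtg16 cannot be told apart.

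Recovery differed between the named sites. At chr6:82878671-82879680 the libraries of 2 h washout had 43.4, 44.5 and 36.6 normalized reads, against 114 and 132 after 2 h of dTAGV1 (-1.55 ± 0.20, limma adjusted p = 4.71e-05, n = 3 and 2). They were still above the 22.4 to 24.7 of DMSO. At chr15:66696431-66698050 there were 83.7, 69.5 and 111 after 2 h of washout, against 211 and 149 after 2 h of dTAGV1 (-1.03 ± 0.34, limma adjusted p = 0.0468, n = 3 and 2). By contrast chr17:50275691-50276150 had 36.0, 39.8 and 43.0 after 2 h of washout and 30.1 and 37.1 after 2 h of dTAGV1. Its change of 0.23 did not pass the threshold, and none of its washout libraries approached the DMSO values of 1.87, 3.66 and 5.97.

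The 3 selected sites with the deepest fall after 2 h of washout, measured against 2 h of dTAGV1, went below DMSO or near to it. At chr5:117445761-117446850 the washout libraries had 25.4, 26.6 and 19.2 normalized reads, against 103 and 82.8 after 2 h of dTAGV1 (-1.93 ± 0.30, limma adjusted p = 0.0003, n = 3 and 2). DMSO gave 89.7, 92.3 and 80.5, so the degrader had left the site near its DMSO level in the time course, and washout took it lower (-1.85 ± 0.27 against DMSO, limma adjusted p = 1.13e-05, n = 3 each). At chr14:61735171-61735760 the change against 2 h of dTAGV1 was -1.999 ± 0.48 (limma adjusted p = 0.00806) and at chr1:192425011-192425280 it was -2.04 ± 0.50 (limma adjusted p = 0.00986, n = 3 and 2 in both).

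The 3 with the largest rises were chr13:112714571-112714890, chr4:128819041-128819600 and chr13:45023261-45023470. The first had 1345, 3081 and 3188 normalized reads after 2 h of washout, against 504 and 371 after 2 h of dTAGV1 (2.45 ± 0.51, limma adjusted p = 0.00298, n = 3 and 2). The last of them had 812, 1452 and 1555 after washout against 321 and 217 after 2 h of dTAGV1 (2.21 ± 0.72, limma adjusted p = 0.0468, n = 3 and 2). These are the 2 sites described above whose selection rested on dTAGV1 1 h replicate 6, and in the time course they ranged widely within groups, with DMSO at 230, 606 and 183 for the first. Both were among the sites with the most reads of those named in the time course, but not in every experiment. Their DMSO means in the A485 series were 42.2 and 39.1 normalized reads. In the LBH589 washout series they averaged 4.88 and 1.04 at 30 min.

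LBH589, which blocks the deacetylases that Mtg16 recruits, was tested without the degrader. The test covered 22740 sites, of which 1543 were selected sites, and 70 selected sites had a mean under 10. After 30 min of LBH589, 302 of 1543 were higher than in DMSO and 61 lower (all sites: 9.34% higher, 8.93% lower), with a median of 0.19. After 1 h 594 were higher and 94 lower (all sites: 17.4% and 19.0%), with a median of 0.35 and a median SE of 0.21. At 1 h, 38.5% of the selected sites were thus higher and 6.09% lower, and 1139 of 1543 differences were positive. Of the A485-lowered sites 276 of 1032 were higher and 158 lower at 1 h, with a median of 0.14. DESeq2 called 194 of the selected sites higher and 29 lower at 30 min.

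The bands of A485 ratio gave similar counts with LBH589. At 1 h, 95 of 257 sites with a ratio below 0 were higher, 237 of 591 between 0 and 0.7, and 262 of 695 at 0.7 or more, with medians of 0.30, 0.37 and 0.35. The sites that were higher at 1 h of dTAGV1 in the time course and those that were not also came out alike, with 211 of 501 (42.1%) and 380 of 1027 (37.0%) higher after 1 h of LBH589. These shares are descriptions, and their differences were not tested. Between 1 h and 30 min of LBH589, 189 selected sites were higher and 49 lower at the later time (all sites: 6.25% and 9.38%).

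**Figure D5:**
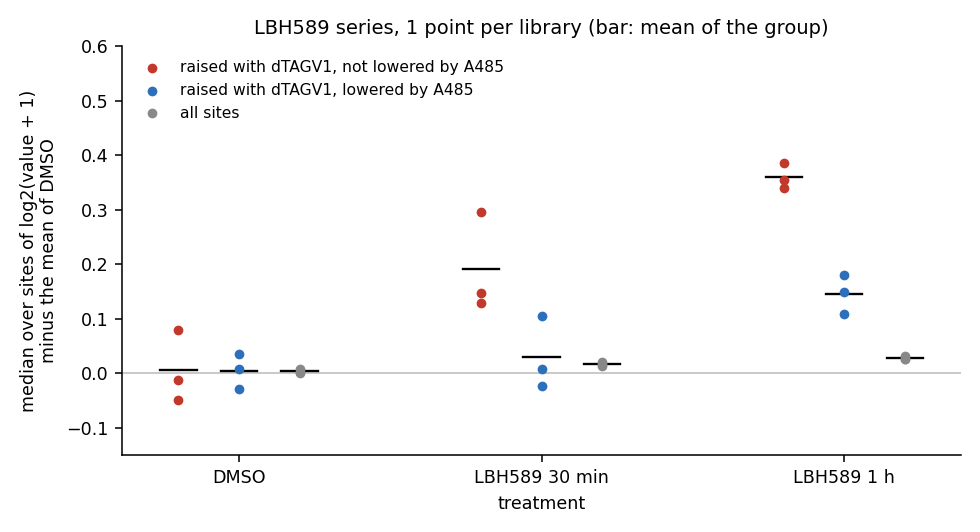
Median over sites of log2(value + 1) minus the DMSO mean (vertical axis) for each library of the LBH589 series, with the selected sites in red, the A485-lowered sites in blue and all sites in grey, and bars for group means. The selected sites lie between 0.13 and 0.30 at 30 min and between 0.34 and 0.39 at 1 h, above their DMSO libraries at -0.05 to 0.08.

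The 3 highest changes with LBH589 belonged to sites that were not called with 1 h of dTAGV1 in the time course. At chr5:148773601-148773940 there were 21.8, 20.02 and 23.6 normalized reads after 1 h of LBH589, against 1.39, 4.55 and 4.26 in DMSO (2.47 ± 0.38, limma adjusted p = 9.66e-07, n = 3 each). At chr3:151857481-151858460 there were 69.6, 43.7 and 68.2 after 1 h of LBH589, against 5.57, 15.9 and 12.8 in DMSO (2.38 ± 0.28, limma adjusted p = 1.70e-09, n = 3 each). At chr1:155301241-155301860 there were 59.5, 64.6 and 75.2 after 1 h of LBH589, against 12.5, 18.2 and 8.52 in DMSO (2.31 ± 0.25, limma adjusted p = 2.08e-10, n = 3 each). No LBH589 library overlapped DMSO at these sites. Their changes after 1 h of dTAGV1 in the time course were -0.09, 0.82 and 0.65, and none passed the threshold.

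The 3 lowest were chr8:3389401-3389600, chr8:120906121-120906400 and chr7:121788961-121789300. At the first there were 37.7, 17.3 and 14.9 normalized reads after 1 h of LBH589, against 82.1, 72.8 and 94.8 in DMSO (-1.90 ± 0.25, limma adjusted p = 2.38e-08, n = 3 each). Its level differed widely between experiments, with a DMSO mean of 83.2 here and 4.95 in the A485 series. In the LBH589 washout series it averaged 0.30 at 30 min and 0.83 at 1 h, so its fall with LBH589 rests on this series alone. At the third there were 10.1, 10.0 and 9.61 after 1 h of LBH589, against 25.1, 34.1 and 22.4 in DMSO (-1.35 ± 0.31, limma adjusted p = 0.000454, n = 3 each). That site was higher with both agents than with dTAGV1 at 30 min (1.88 ± 0.30, limma adjusted p = 5.63e-06, n = 2 and 3), so LBH589 alone and A485 added to the degrader moved it in opposite directions. The second changed by -1.82 ± 0.36 with LBH589 (limma adjusted p = 6.44e-05, n = 3 each) and by 1.51 ± 0.40 with both agents against dTAGV1 at 30 min (limma adjusted p = 0.00302, n = 2 and 3).

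The sites named for their degrader response differed in their values with LBH589. At chr17:50275691-50276150, where dTAGV1 changed transcription by 2.76 at 1 h in the time course, LBH589 for 30 min gave 19.1, 16.3 and 13.7 normalized reads, against 12.5, 4.55 and 2.13 in DMSO (1.48 ± 0.41, limma adjusted p = 0.00782, n = 3 each). After 1 h of LBH589 it had 8.39, 11.8 and 17.5, which overlapped the DMSO values (1.08 ± 0.41, limma adjusted p = 0.0342, n = 3 each). At chr15:66696431-66698050, with 3.08 after dTAGV1, LBH589 for 1 h gave 43.6, 42.8 and 34.1 against 32.0, 34.1 and 21.3 in DMSO, a change of 0.47 that did not pass the threshold. Here the groups touched at 34.1.

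In the LBH589 washout series, 1151 selected sites reached a mean of 10 and 462 did not, among 17435 sites tested. At 1 h of washout 51 of the 1151 were higher and 3 lower than at 30 min (all sites: 2.83% and 2.70%), with a median of 0.29 and a median SE of 0.32. The count was 0 or 1 when any 1 of the 3 libraries at 30 min was left out, and 129 without 1 h replicate 3, the library that stood apart. Quantile normalization gave 88 and DESeq2 84. With no DMSO and no washout without LBH589 in this experiment, these numbers describe the later against the earlier time only.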

How the data were processed

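PRO-seq reads at dREG sites were deposited as signal values, counts divided by DESeq2 size factors, in a table for each of 4 experiments. Per the submitters' processing notes the tools included DESeq2 1.46.0, featureCounts 2.0.1, HOMER, SAMtools 1.16.1, Bowtie2 2.2.2 and bedtools, with builds mm39 and dm3. How dREG was run is not given in the sources used here. All values came out as whole reads (100%, tolerance 0.1 of a read) once each library's step was found. Positions are mm39, counted from 1. No annotation of that build was used, so genes near the sites, their sequences and motifs were not analysed here, and reads of overlapping genes cannot be separated from those of a site.

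Sites with a mean of at least 10 over a table were tested on log2(value + 1) with limma 3.58.1 (lmFit, eBayes with trend) in R 4.3.3, all groups of a table in one fit, with Benjamini-Hochberg adjustment over all sites and a threshold of 0.05. Fold changes on that scale understate those of low sites. edgeR 4.0.16 and DESeq2 1.42.0 on recovered reads, another pseudocount, no filter, quantile normalization, the compared groups alone, leaving out libraries and the replicate number as a block were alternatives. The fitting code was tested on simulated data. Only groups that had no part in the selection were tested. Members and lists were chosen with earlier results of these data known. Named sites were the 8 highest called and the 4 lowest changes at 1 h of dTAGV1 in the time course, the 4 highest and 3 lowest for both agents against A485 at 30 min, the 3 deepest falls and 3 largest rises for 2 h of washout against 2 h of dTAGV1, the 3 highest and 3 lowest with LBH589 at 1 h, the 5 highest ratios of the selection, and the sites nearest its limits.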

Additional observations from a re-analysis of the deposited data

Results flagged for a closer look

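At 5 of the selected sites named for another reason, the change with LBH589 differed between 1 h and 30 min by a direct test of these groups (limma, 3 libraries each). The site chr1:155301241-155301860 was higher at 1 h by 1.18 ± 0.25 (log2 ± SE, limma adjusted p = 0.000583) and chr3:151857481-151858460 by 1.01 ± 0.28 (limma adjusted p = 0.00904). A further one, chr15:66696431-66698050, was higher at 1 h by 0.68 ± 0.24 (limma adjusted p = 0.0417). The sites chr13:112714571-112714890 and chr13:45023261-45023470 were lower at 1 h, with differences of -0.44 ± 0.16 (limma adjusted p = 0.0432) and -0.57 ± 0.18 (limma adjusted p = 0.0282). The first had 169, 145 and 76.9 normalized reads at 1 h and 214, 147 and 152 at 30 min. The second had 130, 107 and 47.2 at 1 h and 155, 118 and 119 at 30 min. At both the groups overlapped, and 1 h replicate 3 was lowest. Their selection rested on dTAGV1 1 h replicate 6. Their DMSO means were 306 and 196 here, against 42.2 and 39.1 in the A485 series. No cause was tested. Groups of 3 libraries or fewer were not screened for single outlying samples.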

How the results depend on the processing

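Of the counts of selected sites recomputed under the alternatives, 156 were within 1.5 times the reported count and 36 were not. Shares of all sites under the alternatives are not given here, so a larger count need not be particular to the selected sites. The cause was not tested unless fewer samples entered. For 30 min of washout against 2 h of dTAGV1 (reported 0), DESeq2 gave 1 and the fit without the 3 libraries that stood apart 204. For 1 h of washout (reported 81) the compared groups alone gave 364 and the fit without those libraries 292. For 2 h of washout against 2 h of dTAGV1 (reported 259) the same 2 settings gave 551 and 462. For both agents against A485, DESeq2 gave 25 at 15 min (reported 16). At 30 min (reported 21) the compared groups alone gave 1, edgeR 2 and DESeq2 7. For both agents against dTAGV1 at 15 min (reported 113 higher and 372 lower) the compared groups alone gave 761. LBH589 at 30 min (reported 363) gave 223 with DESeq2, and LBH589 washout (reported 54) gave 88 with quantile normalization and 84 with DESeq2.

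Leaving out 1 library in turn gave between 346 and 505 sites for 15 min of dTAGV1 (reported 484 higher and 1 lower), 340 and 470 for 30 min (447), 404 and 546 for 1 h (533), and 171 and 358 for 2 h (331), with 171 and 213 without 2 h replicate 1 and 2. Washout against 2 h of dTAGV1 gave 0 to 55 at 30 min, 0 to 10 at 1 h and 54 to 183 at 2 h, and 2 h of washout against DMSO gave 454 to 535 (581). Both agents against A485 gave 5 to 18 at 15 min and 6 to 65 at 30 min, and against dTAGV1 365 to 415 at 15 min and 437 to 543 at 30 min (606). LBH589 gave 282 to 347 at 30 min and 574 to 655 at 1 h (688), and LBH589 washout 0 to 129. Where this leaves 1 library in a group, that library is assumed to vary like the others. The selection itself gave 1462 to 1835 sites.

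The replicate numbers did not pair the libraries: deviations of same-numbered libraries correlated between -0.06 and 0.09. The replicate block gave 476, 436, 526 and 314 sites at 15 min, 30 min, 1 h and 2 h of dTAGV1. It gave 0, 67 and 244 for washout against 2 h of dTAGV1 and 587 for 2 h of washout against DMSO. For both agents the replicate block gave 15 and 24 against A485 at 15 and 30 min and 494 against dTAGV1 at 15 min, and for LBH589 washout 59. No paired analysis was possible for both agents against dTAGV1 at 30 min or for LBH589 against DMSO because those groups share no replicate numbers. The single named sites were refitted only with another pseudocount, the compared groups alone, quantile normalization and edgeR. Leaving out libraries, DESeq2, no filter and the replicate block were not applied to them. Each site was refitted for the comparison that named it, and sites named only by their ratios were left out. Of these refits, 113 kept direction and call, 11 kept the direction and lost the call, and 0 reversed. A site without a reported call that stayed uncalled counts among the 113. The planned counts of genes within 10 and 50 kb were not run, for want of an mm39 annotation. Sites under a mean of 10 normalized reads were not tested at this depth, and changes shared by most sites cannot be seen after size-factor scaling.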
